A study of Brassica rapa with 6 samples.

Results

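The circadian clock genes described here are the loci of a baby Chinese cabbage (*Brassica rapa*) transcriptome whose annotation names a component of the plant clock. They were found by their gene descriptions alone, by any of the texts APRR, protein LHY, CCA1, REVEILLE, GIGANTEA, EARLY FLOWERING, adagio, LUX, LNK, TIME FOR COFFEE or night light-inducible in upper or lower case, among loci that do not merge several annotated genes. The search found 91 of the 49200 loci in the deposited table. Of these, 53 are named after a clock gene or one of its relatives, apart from 1 that shares only the words EARLY FLOWERING (PHOTOPERIOD-INDEPENDENT EARLY FLOWERING 1, no clock component). All 53 are called clock loci in the counts. The other 38 matched only because the characters of LUX or CCA1 stand inside another word (efflux, POLLUX, and YUCCA followed by a number), and they are counted apart. Another 4 loci held a clock text but merged several annotated genes and were not members.

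RNA was sequenced from leaf and from petiole (the leaf stalk) of mature untreated plants of an inbred line, with 3 libraries of each tissue and no other group. Both tissues therefore share the genotype, the stage and the absence of treatment. The labels give neither the hour of sampling nor the light regime, and do not say whether the numbered libraries came from separate plants, so the p-values measure the spread between these libraries, which may be technical. Tissue was the only contrast, and clock transcripts cycle over the day, so a tissue difference and a difference in sampling hour cannot be told apart here.

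In plants the clock is a loop of transcription factors that repress and activate each other over the day. In Arabidopsis the MYB-like factors LHY and CCA1 peak around dawn, the pseudo-response regulators (PRR9, PRR7, PRR5, PRR3 and PRR1, the last also called TOC1) follow each other from morning to evening, and the evening complex of ELF3, ELF4 and LUX acts around dusk and into the night. GIGANTEA and the adagio (ZEITLUPE family) F-box proteins control the stability of clock proteins, the REVEILLE factors with their LNK coactivators switch on evening genes, and the clock times photosynthesis, growth and flowering.

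The deposited counts summed to 111518411 to 121161682 units in the leaf libraries and 120805715 to 132861243 in the petiole libraries, at about 3.75 units per sequenced fragment. Levels in the tissue comparison are CPM, the counts of a locus relative to its library size, scaled by the trimmed mean of M-values (TMM), which sets the middle of all loci near equality, and all signed log2 values are petiole minus leaf. Levels of different genes are compared only as the deposited FPKM, which are per length. The tissues matched their labels. Of 24 chlorophyll a-b binding loci with a test, 23 had more counts in leaf, at a summed FPKM of 2869 to 3122 in leaf libraries and 422.8 to 463 in petiole libraries, and the same held for both Rubisco small chain loci tested. All 10 cellulose synthase A loci tested were higher in petiole, with a summed FPKM of 899.2 to 908.5 against 187.6 to 198.6 in leaf, as were 10 of 12 tubulin beta loci, with 1 higher in leaf. In such whole-organ samples, fewer cells of a type and less RNA per cell cannot be told apart.

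Leaf carried more transcript of the evening complex genes ELF3 and LUX, of APRR1, APRR5 and RVE7, and petiole more of RVE2, an APRR9 copy and most LNK genes. APRR7, LHY and LNK2-like were also higher in leaf on counts. They did not pass on log2(FPKM + 1), nor did APRR5 MSTRG.24504 and ELF3 MSTRG.27685. Of the 53 clock loci 41 were tested, 23 were higher in leaf, 7 were higher in petiole and 11 did not pass an adjusted p of 0.05 in edgeR's quasi-likelihood test. Over all 31473 loci tested, 62.6% passed, 31.1% as higher in leaf and 31.5% as higher in petiole, so the clock loci passed at 73.2%, not far above the background, and 23 of their 30 calls were for leaf. The median log2 fold change was -0.54 over the clock loci and 0.01 over all loci, while the median size regardless of sign was 0.80 and 0.78. The 3 leaf and 3 petiole libraries did not overlap in 32 of the 41 clock loci, where 71.3% of all loci tested had no overlap. At least a 2-fold difference was called in 15 of the 41 clock loci, 12 of them for leaf and 3 for petiole, against 34.5% of all loci. The leaf and petiole marker sums given above separate the tissues in the same way, and the part of tissue make-up in the clock differences was not tested.

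The direction of small differences depended on the scale. For every locus the deposited FPKM placed petiole 0.74 log2 units higher against leaf than the TMM-scaled counts did (14827 loci with ample counts), and on log2(FPKM + 1) the median of all loci tested was 0.47 rather than 0.01. Petiole took 23.3% of the clock calls on TMM-scaled counts, 30% with upper-quartile scaling, 35.7% with library size alone, and 58.6% with limma on log2(FPKM + 1), when its share of all calls was 50.3%, 53.8%, 65.2% and 78.4%. Directions are therefore given relative to the middle of all loci. On log2(FPKM + 1), 18478 of all 31473 loci tested were called higher in petiole and 5078 higher in leaf. These are the background for every count on that scale. On both the TMM-scaled counts and log2(FPKM + 1), 12 clock loci were called in favour of leaf and 7 in favour of petiole. Another 3 were called on both with opposite signs, and 19 were not called on both. Since the FPKM scale moves every locus towards petiole, it is no second test of the 7.

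**Figure D1:**
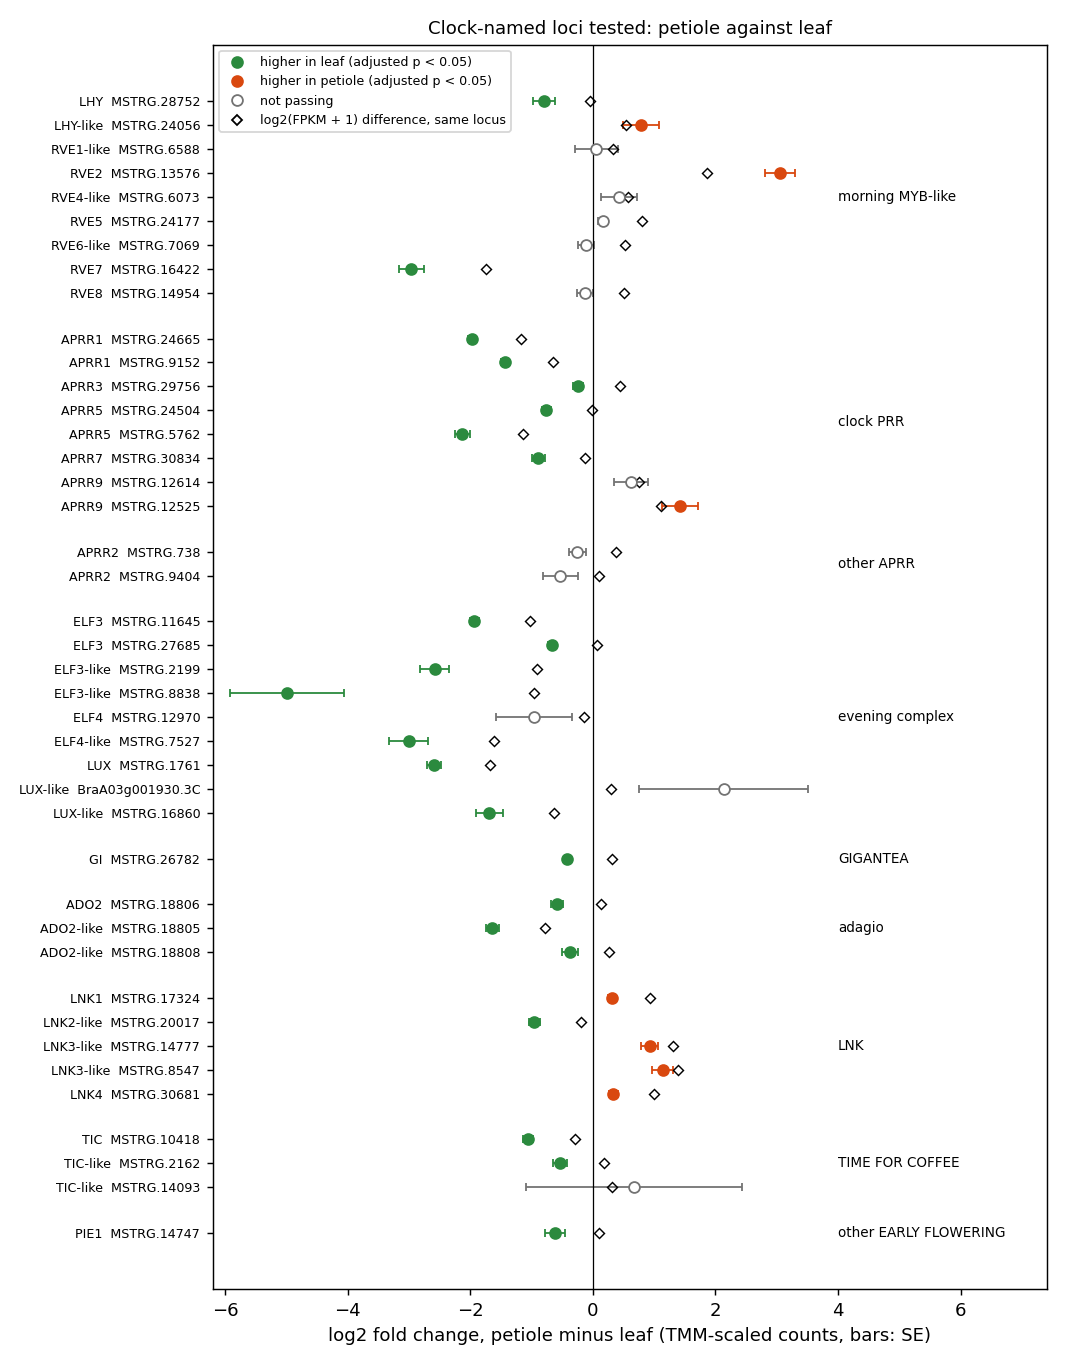
Log2 fold change, petiole minus leaf, of the 41 clock loci tested, in edgeR on TMM-scaled counts (circles, bars are SE) with the difference on log2(FPKM + 1) for the same locus (diamonds). Filled green circles are higher in leaf (23) and filled orange ones higher in petiole (7) at an adjusted p under 0.05, open grey circles did not pass (11), and the diamonds of several loci with small negative circles, GI and APRR3 among them, lie on the other side of the line.

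Among the pseudo-response regulators, repressors that act in turn from morning to evening, 8 of 12 loci were tested, 6 were higher in leaf and 1 in petiole on counts (median log2 fold change -0.83), and 3 and 3 with limma on log2(FPKM + 1). The share passing on counts was 87.5%, against 62.6% of all loci. APRR1, the TOC1 gene, acts at the evening end of the series and has 2 expressed loci. The locus MSTRG.24665 on chromosome A09 (bases 3986771 to 3989414, plus strand) stood at 79.4, 72.9 and 72.1 CPM in the leaf libraries and 18.7, 18.7 and 19.6 in the petiole libraries. The leaf libraries all lay far above the petiole ones, and the log2 fold change was -1.98 ± 0.06 (SE, adjusted p = 8.34e-10). The locus MSTRG.9152 on A03 (22407060 to 22410231, plus strand) stood at 83.8, 92.2 and 95.2 CPM in leaf and 34.05, 33.0 and 33.3 in petiole, with no overlap and a log2 fold change of -1.43 ± 0.06 (SE, adjusted p = 6.96e-09). This locus shares 314 of its 3172 bases with a gene on the other strand, ribulose-phosphate 3-epimerase, which was itself higher in leaf (110.6 ± 1.32 against 16.3 ± 1.52 CPM, SD, n = 3), and the part of shared reads in the result was not tested. Summed over the APRR1 loci, FPKM was 45.7 ± 0.16 in leaf and 23.1 ± 0.22 in petiole (SD, n = 3), so the libraries of a tissue differed little from each other.

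APRR5, an evening repressor next to APRR1 in the series, also has 2 expressed loci that differed in size of change. MSTRG.5762 on A02 (29277027 to 29279065, plus strand) stood at 20.1, 19.6 and 20.5 CPM in leaf and 5.11, 3.89 and 4.73 in petiole. Every leaf library was above every petiole library, with a log2 fold change of -2.13 ± 0.12 (SE, adjusted p = 9.00e-08). MSTRG.24504 on A09 (3568955 to 3572304, plus strand) stood at 29.0, 27.8 and 28.1 CPM in leaf and 16.8, 16.4 and 16.9 in petiole. Its log2 fold change was -0.76 ± 0.07 (SE, adjusted p = 4.34e-06) on counts without overlap, and -0.02, not passing, on log2(FPKM + 1). The expressed APRR3 locus, whose Arabidopsis counterpart protects TOC1 from degradation, was close between the tissues at 32.3, 37.0 and 32.0 CPM in leaf and 27.2, 30.2 and 28.1 in petiole, called higher in leaf on counts (log2 fold change -0.24, adjusted p = 0.0189) and higher in petiole on log2(FPKM + 1) (0.45, limma adjusted p = 0.000937). That call on counts was lost when leaf library 2, petiole library 1 or petiole library 3 was left out (adjusted p 0.0544 to 0.0776).

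APRR7, a daytime repressor of LHY and CCA1, was among the most abundant clock transcripts, at 99.6, 73.7 and 89.5 CPM in leaf and 50.3, 44.6 and 46.8 in petiole. The groups did not overlap on counts, with a log2 fold change of -0.89 ± 0.11 (SE, adjusted p = 0.000117), which was -0.14 and did not pass on log2(FPKM + 1). APRR9, the first of the series to rise after dawn, was low in both tissues and was the exception in direction. Its locus MSTRG.12525 on A04 (21769380 to 21771692, plus strand) stood at 2.11, 1.15 and 1.09 CPM in leaf and 4.43, 3.10 and 4.13 in petiole, with every petiole library above every leaf library and a log2 fold change of 1.42 ± 0.30 (SE, adjusted p = 0.00173). The other APRR9 locus, MSTRG.12614, stood at 2.32, 2.01 and 1.33 CPM in leaf and 3.17, 3.29 and 2.23 in petiole, where 1 petiole library lay within the leaf range and the difference did not pass (log2 fold change 0.62 ± 0.27, SE, adjusted p = 0.0715). The APRR2 loci, relatives outside the clock series, did not pass on counts at log2 fold changes of -0.25 and -0.53, and had the opposite sign on log2(FPKM + 1), 0.38 and 0.09.

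The evening complex, a repressor that restrains growth genes and clock genes at night, had the lowest median of the groups with several members. Of its 10 loci 9 were tested, 7 were higher in leaf and 0 in petiole, with a median log2 fold change of -1.93. The share passing was 77.8%, against 62.6% of all loci (31.1% as higher in leaf, 31.5% as higher in petiole). At an unadjusted p under 0.05 the count in petiole was also 0, in DESeq2 it was 0, and with limma on log2(FPKM + 1) 6 were higher in leaf and 0 in petiole (with 0.1 as the added constant, 6 and 1).

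LUX is the DNA-binding member of the complex. Its main locus MSTRG.1761 on A01 (14865073 to 14866841, minus strand) stood at 38.9, 42.0 and 34.9 CPM in leaf and 5.79, 6.03 and 7.46 in petiole. Leaf exceeded petiole 6.01 times with no overlap, and the log2 fold change was -2.59 ± 0.12 (SE, adjusted p = 1.62e-08). This locus shares 898 of its 1769 bases with a UDP-glycosyltransferase locus on the other strand, which stood at 26.9 ± 2.08 CPM in leaf and 4.46 ± 0.97 in petiole (SD, n = 3), a log2 fold change of the same size (-2.59). The libraries were strand-specific per the labels' protocols, but whether the counting used strand is not given in the sources used here, so reads of the overlapping genes cannot be told apart. A LUX-like locus that overlaps no other gene, MSTRG.16860 on A06 (11640071 to 11640985, minus strand), stood at 3.82, 4.70 and 4.42 CPM in leaf and 1.13, 1.63 and 1.25 in petiole. The fitted log2 fold change was -1.69 ± 0.22 (SE, adjusted p = 7.07e-05), in the same direction and without overlap. The remaining LUX-like locus rested on 4 fragments in leaf and 24 in petiole and did not pass (adjusted p = 0.204).

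ELF3, the scaffold that holds the complex together, had 4 expressed loci, and all 4 were higher in leaf on counts. MSTRG.11645 on A04 (14426072 to 14429545, plus strand) stood at 49.9, 47.9 and 43.7 CPM in leaf and 11.99, 12.9 and 12.2 in petiole. Leaf was well above petiole in each library, and the log2 fold change was -1.93 ± 0.08 (SE, adjusted p = 5.03e-09). The other abundant locus, MSTRG.27685 on A09 (38485435 to 38488092, plus strand), stood at 36.7, 37.4 and 40.2 CPM in leaf and 24.4, 23.1 and 24.5 in petiole, for a smaller log2 fold change of -0.67 ± 0.07 (SE, adjusted p = 7.97e-06) on counts that turned to 0.06 without passing on log2(FPKM + 1). The lower ELF3-like locus MSTRG.2199 stood at 5.53, 5.59 and 3.78 CPM in leaf and 0.795, 0.767 and 0.935 in petiole. The difference, as a log2 fold change, was -2.58 ± 0.24 (SE, adjusted p = 4.34e-06). MSTRG.8838, also ELF3-like, was nearly absent from petiole at 0, 0.0774 and 0.194 CPM after 3.00, 3.19 and 2.39 in leaf. It rested on 238 fragments in leaf and 10 in petiole, a ratio of 32.5 with a 95% exact interval of 17.4 to 68.7 that covers counting error only (adjusted p = 0.00255).

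ELF4, the small partner protein of ELF3, has a short transcript with few fragments. Its ELF4-like locus MSTRG.7527 stood at 3.75, 3.29 and 2.76 CPM in leaf and 0.272, 0.514 and 0.434 in petiole. This was a log2 fold change of -3.01 ± 0.32 (SE, adjusted p = 1.33e-05), with a wide gap between the tissues. The locus annotated as ELF4 itself was lower still, at 0.491, 0.793 and 0.756 CPM in leaf and 0.497, 0.366 and 0.1795 in petiole, and the groups touched (adjusted p = 0.203).

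GIGANTEA, a large protein that links the clock to photoperiodic flowering, was the most abundant clock transcript per length in both tissues, at 49.1 ± 0.45 FPKM in leaf and 61.1 ± 2.65 in petiole (SD, n = 3). On TMM-scaled counts its locus MSTRG.26782 on A09 (31442790 to 31448154, minus strand) stood at 346.9, 344.8 and 351.5 CPM in leaf and 271.3, 254.7 and 253.0 in petiole. It was called higher in leaf on that scale (log2 fold change -0.42 ± 0.04, SE, adjusted p = 4.19e-06), higher in petiole on log2(FPKM + 1) (0.31, limma adjusted p = 0.000286), and did not pass with library size alone (-0.11, adjusted p = 0.0930). The direction of GIGANTEA therefore depended on the scale, whereas APRR1 and LUX (MSTRG.1761) were called higher in leaf on every scale tried. The choice of scale does not address the overlap of LUX MSTRG.1761 and APRR1 MSTRG.9152 with opposite-strand genes that were also higher in leaf.

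The adagio loci encode blue-light receptors of the ZEITLUPE family, F-box proteins that mark clock proteins for degradation, and all 3 are annotated as adagio protein 2 (LKP2 in Arabidopsis). They lie beside each other on A07 between bases 1349482 and 1364870. MSTRG.18805 stood at 27.9, 24.1 and 28.2 CPM in leaf and 9.50, 8.43 and 7.74 in petiole. On the log2 scale the difference was -1.64 ± 0.11 (SE, adjusted p = 2.73e-07), and the locus was also called on log2(FPKM + 1). MSTRG.18806 stood at 15.0, 17.2 and 16.6 CPM in leaf and 10.8, 10.6 and 11.2 in petiole. Its log2 fold change was -0.58 ± 0.09 (SE, adjusted p = 0.000327) on counts and 0.13, not passing, on log2(FPKM + 1). MSTRG.18808 differed least, 8.09 ± 0.62 against 6.25 ± 0.50 CPM (SD, n = 3). It was called higher in leaf on counts (log2 fold change -0.37, adjusted p = 0.0277) and higher in petiole on log2(FPKM + 1) (0.27, limma adjusted p = 0.0302). Its call on counts was lost without leaf library 3, petiole library 2 or petiole library 3 (adjusted p 0.0673 to 0.0981).

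The morning MYB-like genes showed no common direction. Of 14 loci 9 were tested, 2 were higher in petiole, 2 were higher in leaf and 5 did not pass on counts (median log2 fold change 0.06), and 7 were higher in petiole and 1 in leaf with limma on log2(FPKM + 1). The share passing on counts was 44.4%, against 62.6% of all loci. LHY, the dawn repressor of the evening genes, was low. Its locus MSTRG.28752 on A10 (417584 to 421107, plus strand) stood at 8.40, 10.8 and 8.33 CPM in leaf and 6.29, 5.48 and 4.04 in petiole, with no overlap and a log2 fold change of -0.80 ± 0.18 (SE, adjusted p = 0.00319) on counts, and -0.05 without passing on log2(FPKM + 1). The LHY-like locus MSTRG.24056 on A08 had the opposite sign, at 1.04, 0.998 and 0.805 CPM in leaf and 1.61, 1.53 and 1.77 in petiole (log2 fold change 0.79 ± 0.30, SE, adjusted p = 0.0410). That call was lost whichever of the 6 libraries was left out, with adjusted p from 0.0541 to 0.106. The 3 loci annotated as LHY/CCA1-like 1 held almost no counts, at most 12 units (about 3 fragments) in any library.

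RVE2 and RVE7, dawn-phased relatives of LHY, changed in opposite directions. RVE2 (also CIR1 in Arabidopsis), locus MSTRG.13576 on A05 (8575924 to 8577774, plus strand), stood at 0.491, 0.578 and 0.718 CPM in leaf and 5.70, 4.14 and 5.03 in petiole. Petiole exceeded leaf 8.31 times and the groups were far apart, with a log2 fold change of 3.05 ± 0.25 (SE, adjusted p = 1.56e-06). RVE7 (EPR1 in Arabidopsis), locus MSTRG.16422 on A06 (7374657 to 7376037, minus strand), ran the other way at 14.8, 11.2 and 17.5 CPM in leaf and 1.52, 1.84 and 2.21 in petiole. Leaf exceeded petiole 7.80 times, the log2 fold change was -2.96 ± 0.20 (SE, adjusted p = 4.01e-07), and the sign of each was the same on log2(FPKM + 1), 1.86 and -1.74. Of these relatives RVE1 was near equal, with its RVE1-like locus at 0.992 ± 0.15 CPM in leaf and 1.03 ± 0.17 in petiole (SD, n = 3, adjusted p = 0.903).

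The REVEILLE 4, 5, 6 and 8 genes, close relatives that include activators of the evening genes, did not pass on counts in any of their 4 loci. The most abundant, RVE5 (MSTRG.24177 on A09, bases 128257 to 130287), stood at 17.4, 17.5 and 16.4 CPM in leaf and 19.4, 18.8 and 19.2 in petiole, a narrow difference without overlap that missed the threshold (log2 fold change 0.16 ± 0.08, SE, adjusted p = 0.0967) and was called higher in petiole with upper-quartile scaling, with library size alone and on log2(FPKM + 1) (0.23, 0.47 and 0.81). RVE6-like and RVE8 had slightly negative log2 fold changes on counts, -0.12 and -0.13, and positive ones on log2(FPKM + 1), 0.52 and 0.51. RVE4-like stood at 1.56 ± 0.36 CPM in leaf and 2.09 ± 0.44 in petiole (SD, n = 3, adjusted p = 0.225).

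The LNK genes, night light-inducible coactivators that work with the REVEILLE factors, leaned to petiole. All 5 loci were tested and passed, 4 as higher in petiole and 1 as higher in leaf, where 62.6% of all loci passed. The 4 were also called higher in petiole on log2(FPKM + 1), but that scale moves every locus towards petiole, so this adds no support. LNK3-like MSTRG.8547 on A03 (17397974 to 17399676, plus strand) stood at 3.10, 3.27 and 2.94 CPM in leaf and 7.88, 7.10 and 5.56 in petiole. The fitted log2 fold change was 1.14 ± 0.17 (SE, adjusted p = 0.000194) with no overlap. LNK3-like MSTRG.14777 on A05 (24612425 to 24615000, minus strand) stood at 9.35, 10.1 and 7.60 CPM in leaf and 15.3, 16.7 and 19.5 in petiole. The difference, as a log2 fold change, was 0.93 ± 0.13 (SE, adjusted p = 0.000138). This locus lies wholly within an opposite-strand locus, cysteine proteinase inhibitor 6, which stood at 501.1 ± 9.19 CPM in leaf and 717.4 ± 41.3 in petiole (SD, n = 3), and the part of its reads in the result was not tested.

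LNK4 and LNK1 differed less but evenly across libraries. LNK4 (MSTRG.30681) stood at 20.5, 21.9 and 20.7 CPM in leaf and 27.1, 26.9 and 25.4 in petiole. This was a log2 fold change of 0.33 ± 0.07 (SE, adjusted p = 0.00216), with no overlap. LNK1 (MSTRG.17324) stood at 27.1, 28.6 and 27.9 CPM in leaf and 32.9, 35.6 and 35.2 in petiole. On the log2 scale the difference was 0.31 ± 0.06 (SE, adjusted p = 0.00168). LNK2-like (MSTRG.20017 on A07) was the member higher in leaf, at 39.6, 41.4 and 34.4 CPM against 21.0, 19.8 and 18.6 in petiole. Its log2 fold change was -0.96 ± 0.09 (SE, adjusted p = 3.52e-06) on counts and -0.19, not passing, on log2(FPKM + 1).

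TIME FOR COFFEE, a nuclear regulator of clock amplitude and period in Arabidopsis, had 2 well-expressed loci among the members. A merged TIC-like locus, MSTRG.14092, was no member and stood higher, at 252.8 ± 35.6 CPM in leaf and 189.0 ± 7.36 in petiole (SD, n = 3). It was called higher in leaf on counts (log2 fold change -0.42, edgeR adjusted p = 0.009). MSTRG.10418 on A04 (151042 to 155330, plus strand) stood at 44.8, 42.5 and 43.6 CPM in leaf and 23.4, 19.9 and 19.3 in petiole. The fitted log2 fold change was -1.06 ± 0.08 (SE, adjusted p = 1.01e-06), and the locus was also called on log2(FPKM + 1). The TIC-like locus MSTRG.2162 stood at 161.4, 158.6 and 157.8 CPM in leaf and 116.9, 89.0 and 122.1 in petiole, where the petiole libraries spread more widely; it was higher in leaf on counts (log2 fold change -0.54, adjusted p = 0.00547) and 0.17, not passing, on log2(FPKM + 1). PHOTOPERIOD-INDEPENDENT EARLY FLOWERING 1 is a chromatin remodeller. It stood at 73.6 ± 3.18 CPM in leaf and 48.2 ± 10.4 in petiole (SD, n = 3), a log2 fold change of -0.61 (adjusted p = 0.0179) on counts, lost without leaf library 1 (adjusted p = 0.0559), and 0.09 on log2(FPKM + 1).

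**Figure D2:**
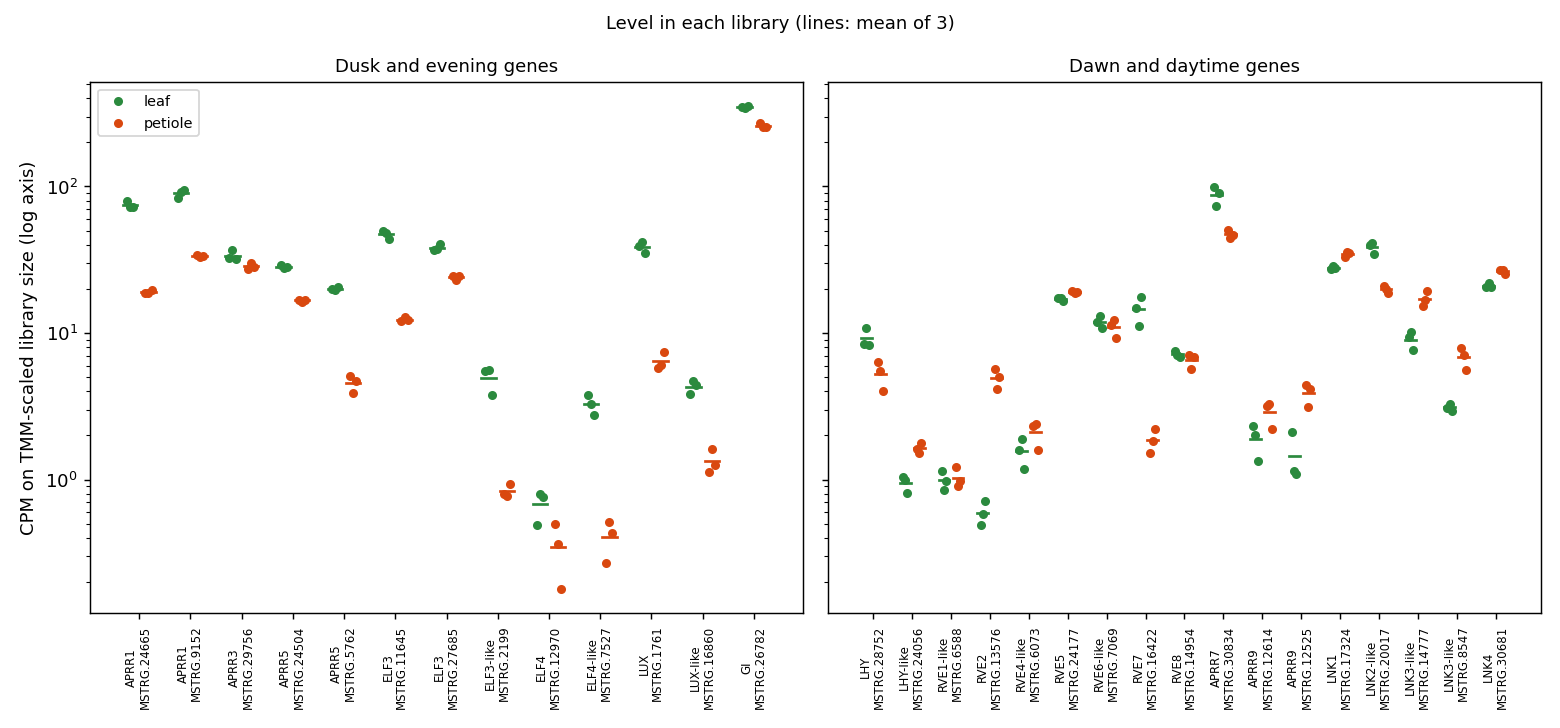
CPM on the TMM-scaled library size (log axis) of every tested clock locus of the dusk and evening genes (13 loci, left) and the dawn and daytime genes (17 loci, right) with counts in all 6 libraries, 1 point per library and a line at the mean of 3. The leaf libraries of APRR1, ELF3, ELF4-like and LUX lie above the petiole libraries, and RVE2 and RVE7 are widely split in opposite directions. On log2(FPKM + 1) GI, APRR3, ELF3 MSTRG.27685, RVE6-like and RVE8 change sign.

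Arranged by the time of day at which the Arabidopsis genes peak, the loci split, but this arrangement was made after the values were seen and carries no test. Of the dusk and evening genes (APRR1, APRR3, APRR5, ELF3, ELF4, LUX and GIGANTEA), 15 of 20 loci were tested, 13 were higher in leaf and 0 in petiole, with a median log2 fold change of -1.69. The count in petiole was 0 at an unadjusted p under 0.05 and in DESeq2, which use the same 6 libraries and add no independent support. With limma on log2(FPKM + 1) 9 were higher in leaf and 2 in petiole, and with 0.1 as the added constant 9 and 3. Of the dawn and daytime genes (LHY, CCA1-like, REVEILLE, APRR7, APRR9 and LNK), 17 of 22 loci were tested. On counts 4 were higher in leaf and 7 in petiole, with a median log2 fold change of 0.31. LNK loci made up 4 of the 7 petiole calls. On log2(FPKM + 1) 1 was higher in leaf and 13 in petiole, where 18478 of all 31473 loci were called higher in petiole. On counts 64.7% of these tested loci and 86.7% of the dusk and evening ones passed, against 62.6% of all loci. Summed FPKM of the dusk and evening genes was 166.4 ± 3.80 in leaf and 128.1 ± 2.01 in petiole (SD, n = 3), with the 3 leaf libraries at 162.8 to 170.4 and the petiole libraries at 126.9 to 130.4. Summed FPKM of the dawn and daytime genes was 76.6 ± 2.48 in leaf and 108.3 ± 4.23 in petiole. Over all clock loci the sums of the deposited FPKM were close, 294.7 ± 3.63 in leaf and 288.9 ± 7.14 in petiole. Every petiole sum here carries the upward shift of 0.74 log2 units given above. The shift exceeds the rise of the dawn and daytime sum. Relative to the middle of all loci, that sum was therefore lower in petiole, and so was the sum over all clock loci.

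Within a tissue, per-length levels spanned a wide range. At a mean FPKM of at least 1 there were 33 clock loci in leaf, 34 in petiole and 37 in either tissue, and at least 10 FPKM was reached by 7 in leaf and 9 in petiole. Every petiole FPKM carries the upward shift of 0.74 log2 units, so these numbers do not compare the tissues. In leaf the order began with GIGANTEA at 49.1 FPKM, followed by APRR1 MSTRG.24665 at 27.0 ± 1.29. The next loci, APRR7 at 19.4 ± 2.71, APRR1 MSTRG.9152 at 18.7 ± 1.32, LUX at 18.5 ± 1.85 and TIC-like MSTRG.2162 at 17.3 ± 0.19, lay within each other's spread. In petiole GIGANTEA was followed by TIC-like MSTRG.2162 at 19.8 ± 3.19, LNK4 at 18.0 ± 0.71 and APRR7 at 17.4 ± 1.10, which did not differ beyond their spread, and then by RVE5 at 12.3 ± 0.21 (SD, n = 3 throughout). LUX moved from rank 5 in leaf to rank 20 in petiole, at 5.13 ± 0.70 FPKM, and ELF3 MSTRG.11645 from rank 8 to rank 23. LNK4 moved the other way, from rank 10 to rank 3.

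**Figure D3:**
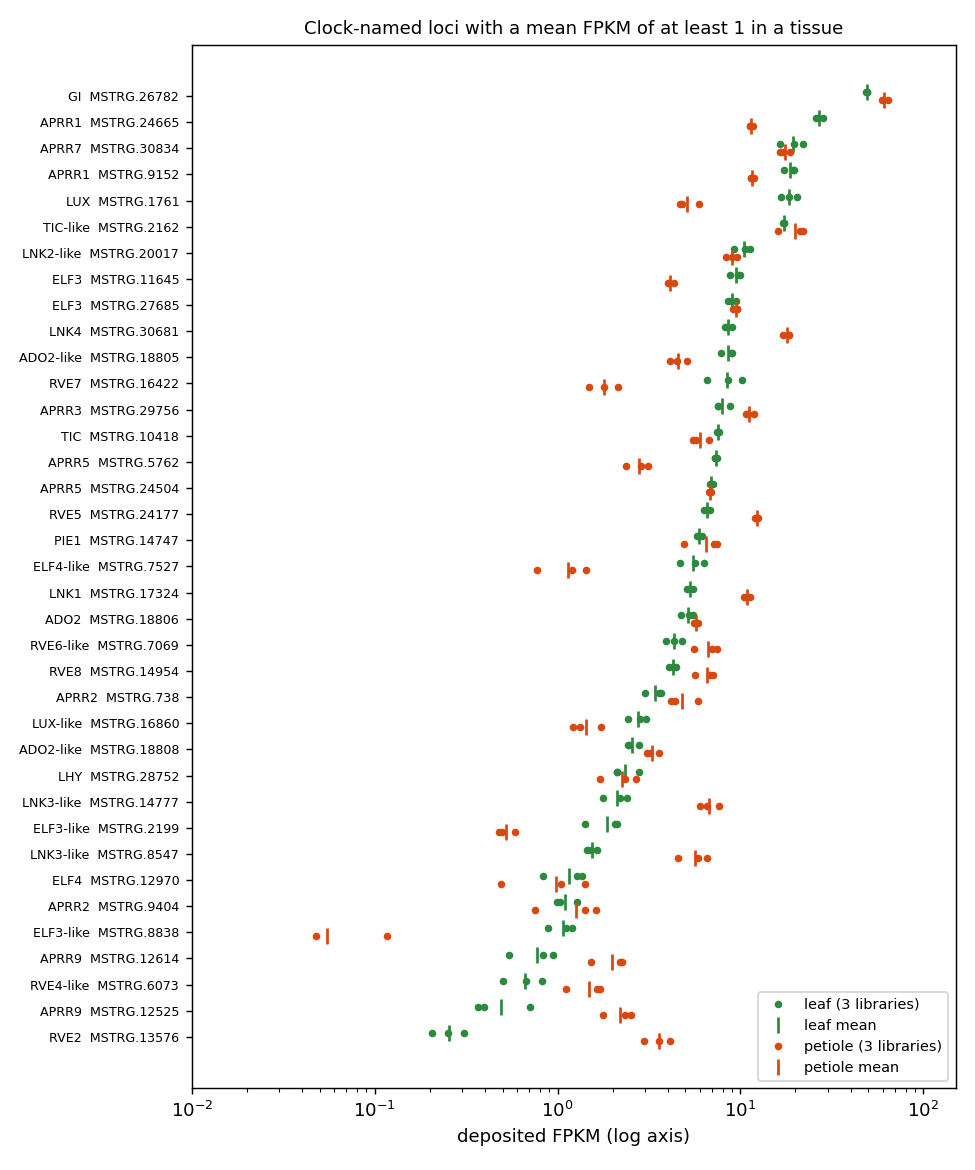
Deposited FPKM (log axis) of the 37 clock loci with a mean of at least 1 in either tissue, ordered by the leaf mean, with points for the 3 libraries of each tissue and a tick at their mean. GIGANTEA is highest in both tissues at 49.1 and 61.1, LUX falls from 18.5 to 5.13, and 1 petiole value of ELF3-like MSTRG.8838, listed at 0.0001 for a count of 0, lies off the axis; the petiole values carry the upward shift of the FPKM scale.

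Many clock genes are present as several loci, as is common in *Brassica rapa*, whose ancestors passed through a genome triplication. How the reads of near-identical copies were divided is not given in the sources used here, so the split between copies is less certain than their sum. The ratio of copies within a library does not depend on the scaling of the library. Of 22 pairs of tested loci annotated alike, 15 had a ratio in all 6 libraries, and in 13 of them the ratios did not overlap between tissues. Pairs that share a locus, as among the adagio and the ELF3 loci, are not independent of each other. Over all 7023 pairs with such ratios in the table, from names shared by 2 to 5 tested loci, 66.6% did not overlap. The 3 against 3 libraries allow no exact permutation p below 0.1, which all 13 reached (two-sided, Benjamini-Hochberg adjusted over the 15 pairs 0.115). The ELF3 loci MSTRG.11645 and MSTRG.27685 were near equal in leaf, with a log2 FPKM ratio of 0.08 ± 0.17, and in petiole the first fell behind at -1.19 ± 0.10. The APRR5 loci MSTRG.24504 and MSTRG.5762 were also near equal in leaf (-0.08 ± 0.04) and parted in petiole (1.31 ± 0.18). LHY exceeded LHY-like by a log2 ratio of 2.90 ± 0.23 in leaf and 1.29 ± 0.42 in petiole. The adagio loci MSTRG.18806 and MSTRG.18805 changed order, from -0.74 ± 0.21 in leaf to 0.33 ± 0.17 in petiole. The pairs whose ratios overlapped were LNK3-like (0.46 ± 0.14 and 0.26 ± 0.43, exact permutation p = 0.6) and APRR2 (1.65 ± 0.21 and 1.98 ± 0.85, p = 0.8 in the same exact test; SD, n = 3 throughout).

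**Figure D4:**
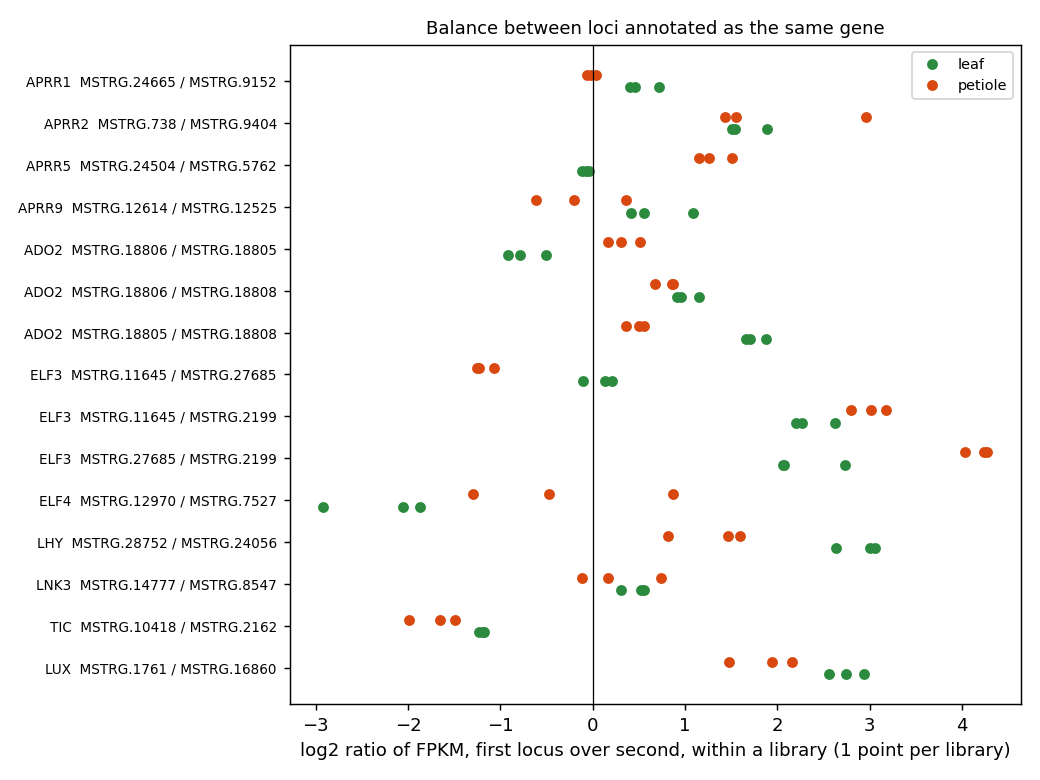
Log2 ratio of FPKM between loci annotated alike, first locus over second, within each library (1 point per library, 15 pairs). The points of leaf and petiole do not overlap in 13 pairs, and ELF3 MSTRG.11645 over MSTRG.27685 goes from about 0.08 in leaf to -1.19 in petiole.

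The 12 clock loci that were not tested held at most 49 count units (about 13 fragments) in any library, and 6 of them held no counts in any library. They comprised the 3 LHY/CCA1-like 1 loci, 2 APRR1 loci and 1 locus each of REVEILLE 1-like, REVEILLE 7-like, APRR3, APRR4, APRR5, APRR6 and EARLY FLOWERING 3. A floor of 3 fragments per library corresponds to 0.0795 to 0.118 CPM, and lower values rest on fewer than 3 fragments in a library. In all, 8 of the 53 clock loci overlap another locus of the table. Among the 34 tested clock loci that overlap none, 20 were higher in leaf and 5 in petiole on counts, with a median log2 fold change of -0.56, and 9 and 14 on log2(FPKM + 1). Of these 34 loci 73.5% passed on counts, against 62.6% of all loci.

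The wider clock and photoperiod pathway was read from a second list of 102 loci, chosen by description, of which 74 were tested. On counts 39 were higher in leaf and 10 in petiole, with a median log2 fold change of -0.31. In all 66.2% passed, near the 62.6% of all loci. With limma on log2(FPKM + 1), 24 were higher in leaf and 40 in petiole, against 5078 and 18478 of all 31473 loci. CONSTANS and CONSTANS-like factors, a family of B-box zinc finger proteins whose founder promotes flowering in long days, made up much of the leaf calls. Of 39 such loci 29 were tested, 20 were higher in leaf and 1 in petiole, with a median of -1.31, and on log2(FPKM + 1) 16 and 8. The share passing on counts was 72.4%, against 62.6% of all loci. COL6-like MSTRG.20677 stood at 20.2, 20.4 and 9.57 CPM in leaf, with a count of 0 in each petiole library, at least 197.4-fold higher in leaf against a floor of 3 fragments per library. COL16-like MSTRG.26627 stood at 23.5, 26.1 and 25.03 CPM in leaf and 0.179, 0.162 and 0 in petiole, and COL16-like MSTRG.19398 at 13.7, 15.4 and 14.4 in leaf and 0.583, 1.11 and 0.823 in petiole. COL9-like MSTRG.2812 was at 23.7 ± 2.38 CPM in leaf and 3.99 ± 0.62 in petiole (SD, n = 3), and a phytochrome A-associated F-box gene, MSTRG.24252, at 31.9 ± 1.73 and 6.30 ± 0.52. These genes were all far apart between the tissues (edgeR adjusted p 0.000352 or less). Cryptochromes, blue-light receptors, were higher in leaf at both loci tested, also on log2(FPKM + 1). The cyclic dof factors, which repress CONSTANS and are degraded with the help of GIGANTEA, leaned to petiole. On counts 3 of 5 tested loci were higher there and 1 in leaf, so 80% passed, against 62.6% of all loci. With limma on log2(FPKM + 1), which moves every locus towards petiole, the numbers were 4 and 0.

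The table's own annotation covered the clock loci in part, with the gene ontology term for circadian rhythm on 33 of the 53 and the KEGG circadian pathway on 28. Another 116 loci carried that ontology term. Of 106 of these tested, 53 were higher in leaf and 29 in petiole on counts, with a median log2 fold change of -0.50. On counts 77.4% passed, against 62.6% of all loci. On log2(FPKM + 1), 37 were higher in leaf and 49 in petiole, against 5078 and 18478 of all 31473 loci. The KEGG circadian pathway covered 292 further loci that were not clock loci, of which 195 were tested. Of these, 84 were higher in leaf and 37 in petiole on counts, with a median log2 fold change of -0.23. The share passing was 62.05%, near the 62.6% of all loci. These lists were looked at after the clock values were known.

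The 38 loci found by letters inside another word are membrane transporters and other enzymes, 15 auxin efflux carriers, 11 K(+) efflux antiporters, 5 MATE efflux proteins, 3 POLLUX ion channels and 4 YUCCA monooxygenases. Of the 25 tested, 11 were higher in petiole and 9 in leaf on counts, with a median log2 fold change of -0.10. On counts 80% passed, against 62.6% of all loci. On log2(FPKM + 1), 14 were higher in petiole and 6 in leaf, against 18478 and 5078 of all 31473 loci. The letter matches include auxin efflux carrier 3 (MSTRG.20604), at 329.7 ± 6.62 CPM in leaf and 146.3 ± 4.31 in petiole, and auxin efflux carrier 7 (MSTRG.19478), at 6.67 ± 0.67 and 41.7 ± 2.29 (SD, n = 3). They share no clock role by annotation and entered none of the counts above.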

How the data were processed

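Per the labels' protocols, total RNA was depleted of ribosomal RNA and made into strand-specific libraries. The deposited table gives an estimated count and an FPKM per locus and library, per the file headers; which program counted, on which plant genome build and with which strand setting is not given in the sources used here. Bowtie 0.12.2 and mm8, a mouse build, stand in the submitters' processing notes with no role. Coordinates are those of the table. The estimated counts as deposited by the authors were whole numbers in steps of about 3.75 units (3.69 to 3.76 by library), not single reads. The FPKM that the authors deposited were proportional to these counts within a locus, with 0.0001 listed for a count of 0.

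Petiole was compared with leaf with edgeR 4.0.16 under R 4.3.3 (quasi-likelihood test) on these counts, which needed no rounding, with filterByExpr, TMM factors of 0.885 to 0.925 in leaf and 1.095 to 1.137 in petiole, robust fitting and tissue alone in the model. All tests were two-sided, p-values were adjusted by Benjamini-Hochberg over 31473 loci, and adjusted p under 0.05 counted as passing. The edgeR biological coefficient of variation was 26.5%, and log2 CPM correlated at 0.988 to 0.989 between libraries of a tissue and 0.846 to 0.853 between tissues. Alternatives were DESeq2 1.42.0, limma 3.58.1 on log2(FPKM + 1) and log2(FPKM + 0.1), other scalings and filters, and each library left out. The edgeR test was checked on simulated data. The share of non-overlapping ratios over all pairs of loci annotated alike was computed after the clock values were seen. Loci without a gene name (2843, taking 5.32% of counts in leaf and 6.37% in petiole) stayed in library sizes, and were left out in an alternative. The largest locus took 9.05% to 12.49% of leaf counts and 3.32% to 3.49% of petiole counts. Intervals and floors cover counting error only.

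The members and lists were chosen with earlier results of these data known. Every clock-named locus may be named. By rule, library values are given in each class for the locus with the highest FPKM, up to 3 with the largest change past the threshold among loci averaging at least 1 FPKM, and copies that differ in direction; library values of further loci were added after their values were seen. From the second list the 5 largest changes at a mean FPKM of at least 5 are named. The examples among letter matches were chosen after their values were seen. No sequences are shown, since the RefSeq gene table at hand shared no identifier with the deposited table.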

Additional observations from a re-analysis of the deposited data

How the results depend on the processing

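Of 691 single-locus values under 17 alternatives, 623 kept their side of the threshold (7 of them with a changed sign but no call under either setting), 29 lost the call, 18 gained it and 21 reversed. On the 15 alternatives that use the counts, 24 of the 30 called clock loci kept call and direction. With limma on log2(FPKM + 1) and log2(FPKM + 0.1), 12 and 12 clock loci were higher in leaf (23 on counts) and 17 and 18 in petiole (7 on counts), and the clock median was 0.13 and 0.15, where the median of all loci was 0.47 and 0.70. With library size alone the clock median was -0.23 and that of all loci 0.32. Leaving out each library gave 21 to 23 higher in leaf, 6 to 8 higher in petiole and a median of -0.63 to -0.42.

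The 21 reversals, each with a call under at least 1 of the settings compared, in the order log2(FPKM + 1) and log2(FPKM + 0.1), were 0.092 and 0.10 for MSTRG.14747 (PIE1), 0.51 and 0.60 for MSTRG.14954 (RVE8), 0.13 and 0.15 for MSTRG.18806 and 0.27 and 0.35 for MSTRG.18808 (adagio), 0.17 and 0.18 for MSTRG.2162 (TIC-like), 0.31 and 0.32 for MSTRG.26782 (GIGANTEA), 0.064 and 0.070 for MSTRG.27685 (ELF3), 0.45 and 0.49 for MSTRG.29756 (APRR3, also 0.064 with library size alone), 0.52 and 0.60 for MSTRG.7069 (RVE6-like) and 0.38 and 0.46 for MSTRG.738 (APRR2). Sign changes without a call were in APRR2 MSTRG.9404 (0.092 and 0.13), RVE8, RVE6-like and APRR2 MSTRG.738 with library size alone, and RVE1-like without leaf library 2 or petiole library 1. All FPKM values carry the scale shift of 0.74 log2 units.

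Leaf and petiole libraries share the numbers 1 to 3, but same-numbered libraries did not deviate together (correlations 0.02, -0.01 and -0.004), so the numbers were not taken as pairs. With the replicate block 6 clock loci were higher in petiole and 23 in leaf, a median of -0.58. TIC-like MSTRG.14093, within a merged locus of the same strand, was called without leaf library 1 alone (adjusted p = 0.0244) and rests on few fragments. APRR2 MSTRG.738 was called without petiole library 2 (adjusted p = 0.0176), and APRR9 MSTRG.12614 without leaf library 1 or petiole library 3 (0.0447 and 0.0434).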
